A study of Mus musculus with 42 samples.

Results

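The genes described here encode enzymes that break down phenylalanine, tyrosine and tryptophan. They are Tat, Hpd, Hgd, Gstz1 and Fah of the tyrosine branch and Tdo2, Afmid, Kmo and Kynu of the tryptophan branch, 9 of the 18193 genes that the arrays name alone. They were chosen by name, as a pathway, and all 16 probe sets annotated to one of them alone were used, with no filter on low values. A probe set is a group of short probes for 1 transcript. Tat, Hpd, Gstz1, Fah and Kmo had 1 probe set each, Hgd and Kynu 2 each, Tdo2 3 and Afmid 4, and a gene was represented by its probe set with the highest mean over all 42 arrays.

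Male ddY mice, 5 weeks old at purchase and then acclimated for 1 week, received VAAM or water by mouth once a day on 5 days. VAAM is a mixture of amino acids made to resemble the saliva of Vespa hornet larvae, and phenylalanine, tyrosine and tryptophan are among its components. It was given as a 1.8% solution at 37.5 µL per g of body weight, and control mice received water. The liver and samples of white fat (WAT, white adipose tissue) and brown fat (BAT) were taken 4 h after the last administration from 7 VAAM mice and 7 water mice and hybridised to 1 array each. All mice fed and moved freely until food was removed on the last morning.

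Tyrosine, which is also formed from phenylalanine by hydroxylation, loses its amino group to become p-hydroxyphenylpyruvate, and its ring is then opened to yield fumarate and acetoacetate. Tryptophan is oxidised to N-formylkynurenine and then to kynurenine, from which anthranilates, alanine and precursors of NAD are made. Both routes are best known from the liver, where Tat and Tdo2 catalyse the entry steps and are classical targets of glucocorticoids.

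The starts of 4 of the genes are shown because their transcripts differed in where they were found: Fah and Gstz1 were well above the array median in adipose tissue as well as in liver, and Tat and Tdo2 were not. Each sequence is the RefSeq promoter entry of build GRCm38.p6, from 250 bases before to 50 bases after the transcription start, written 5′ to 3′ on the gene's strand with every CpG dinucleotide in capitals. The entries lie at chr7:84605893-84606192 (minus strand) for Fah, chr12:87146915-87147214 (plus strand) for Gstz1, chr8:109990186-109990485 (plus strand) for Tat and chr3:81975679-81975978 (minus strand) for Tdo2.
Fah: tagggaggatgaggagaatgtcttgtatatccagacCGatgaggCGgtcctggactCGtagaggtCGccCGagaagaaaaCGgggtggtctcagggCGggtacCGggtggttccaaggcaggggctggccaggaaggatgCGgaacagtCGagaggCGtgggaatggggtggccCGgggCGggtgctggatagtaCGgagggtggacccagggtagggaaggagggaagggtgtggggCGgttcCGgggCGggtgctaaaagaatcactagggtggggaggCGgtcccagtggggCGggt
Gstz1: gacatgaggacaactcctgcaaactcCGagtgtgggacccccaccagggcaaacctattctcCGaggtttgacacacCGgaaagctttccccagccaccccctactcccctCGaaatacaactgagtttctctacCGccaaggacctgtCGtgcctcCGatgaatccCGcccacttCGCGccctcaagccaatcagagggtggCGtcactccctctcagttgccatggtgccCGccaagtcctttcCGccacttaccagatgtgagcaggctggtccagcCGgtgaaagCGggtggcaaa
Tat: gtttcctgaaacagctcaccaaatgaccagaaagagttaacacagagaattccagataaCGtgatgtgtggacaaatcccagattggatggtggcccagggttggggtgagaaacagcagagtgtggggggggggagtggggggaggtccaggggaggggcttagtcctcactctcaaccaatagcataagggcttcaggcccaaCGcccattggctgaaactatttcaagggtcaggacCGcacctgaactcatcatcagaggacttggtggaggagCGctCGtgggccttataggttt
Tdo2: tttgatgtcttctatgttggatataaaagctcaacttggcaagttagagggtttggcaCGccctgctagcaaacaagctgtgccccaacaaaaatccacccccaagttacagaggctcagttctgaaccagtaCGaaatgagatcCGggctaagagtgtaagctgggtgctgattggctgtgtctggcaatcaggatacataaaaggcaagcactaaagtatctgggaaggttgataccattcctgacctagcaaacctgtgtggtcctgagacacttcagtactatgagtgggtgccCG
The Fah window held 19 CpG and the Gstz1 window 15, while the Tat window held 5 and the Tdo2 window 4. Over 32851 RefSeq promoters the median was 7 CpG, with quartiles of 3 and 20, so that none of these 4 windows lay above the upper quartile. Afmid, which was low in fat, had 18 CpG, Hpd and Kmo 7 each and Hgd 2, so the count did not separate the genes by tissue. A second Gstz1 entry held 3 CpG. The letters GGGCGG, a GC box searched on both strands, occurred 5 times in the Fah window and 1 time each in those of Gstz1, Hpd and Afmid, and 35.7% of all promoters held them. The letters TATAAA, searched on both strands, were in the Tdo2 and Hgd windows and in 13.6% of all promoters, but in neither gene close to the start (229 bases before it in Tdo2 and 139 before it in Hgd). Promoter entries were matched for 8 of the 9 genes.

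The deposited values are logarithms, taken as base 2, that the authors made with a summary method named DFW (distribution free weighted). This summary shrinks how far the arrays of a tissue deviate from each other, more for some probe sets than for others, and a VAAM minus water value is then no fold change. Such values are expressed here relative to the pooled SD within the VAAM and water groups of a tissue (SD for short), with their SE. The array medians lay at 6.7294 to 6.7297 in liver, 6.9076 to 6.9133 in WAT and 6.7739 to 6.7754 in BAT, and the median SD of a probe set within a tissue was about 1e-05 (1.08e-05 in liver, 1.41e-05 in WAT, 1.06e-05 in BAT), against 0.215 between the tissue means. The tissues thus behave as if summarized separately, and 99.8%, 99.9% and 99.8% of all 45037 probe sets passed limma at an adjusted p of 0.05 for liver against WAT, liver against BAT and BAT against WAT, so nothing is read from that test and levels are given as a description. Hepatocyte markers (5 of 6 listed were measured) lay between 13.86 and 15.00 in the liver of water mice, between 6.55 and 7.33 in WAT and between 6.43 and 6.85 in BAT. Of 5 brown adipocyte markers Ucp1, Cidea and Cox8b were at 14.05 to 14.22 in BAT and at 7.80 or below in liver and WAT, whereas Dio2 was at 7.03 in liver, slightly lower in BAT and at 6.81 in WAT, and Elovl3 at 8.52 in BAT, 9.53 in liver and 6.22 in WAT. The 4 measured adipocyte markers lay between 10.93 and 14.39 in WAT, between 7.14 and 14.04 in BAT and between 5.89 and 7.17 in liver. Skeletal muscle markers reached 10.42 in the BAT of water mice, and epididymis markers 9.66 in their WAT. Along the leading principal components 4 arrays stood apart from the others of their tissue, namely VAAM replicate 6 in liver, VAAM replicate 1 in WAT and VAAM replicates 3 and 5 in BAT.

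The first question was where the pathway is transcribed. All 9 genes were higher in liver than in either fat, and 8 of the 9 by more than 2 log2 units in each comparison. Of the 16 probe sets, 11 passed that limit against WAT and 11 against BAT, while 1.72% and 2% of all probe sets did. In direction, 15 of 16 were higher in liver than in WAT and 15 of 16 higher than in BAT, against 37.2% and 44.4% of all probe sets. The median difference of the 9 genes was 4.07 from WAT and 4.12 from BAT, against -0.12 and -0.04 over all probe sets, on the log2 scale and across tissues that may have been normalized apart. In tissue RNA of this kind, fewer cells of a type and less RNA per cell cannot be told apart. The SD over the 7 water mice was at most 0.00598 for every one of these probe sets in every tissue. The VAAM mice gave the same tissue differences to within 0.01. Because the summary shrinks the deviations between all arrays of a tissue, VAAM and water alike, this closeness is no measure of how reproducible the tissue differences are.

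In the tyrosine branch, Tat (tyrosine aminotransferase, chr8:109986078-109999804), which removes the amino group of tyrosine, averaged 10.97 in the liver of water mice, 6.68 in BAT and 6.87 in WAT. Hpd (chr5:123171807-123182723), the dioxygenase that turns p-hydroxyphenylpyruvate into homogentisate, was at 14.01 in liver, 6.92 in BAT and 6.72 in WAT, a difference of 7.29 from WAT and 7.09 from BAT. Hgd (chr16:37579742-37632026), which opens the ring of homogentisate, was at 12.78 in liver, 6.52 in BAT and 6.47 in WAT. For these 3 genes both fats lay near the array median and near the level of the hepatocyte markers in fat. Gstz1 and Fah were different. Gstz1 (chr12:87147161-87164723), the maleylacetoacetate isomerase, was at 12.22 in liver, 9.91 in BAT and 11.65 in WAT, so that liver exceeded WAT by only 0.57 and BAT by 2.31. Fah (chr7:84585159-84605942), which cleaves fumarylacetoacetate in the last step, was at 12.85 in liver, 10.90 in BAT and 10.67 in WAT, with a difference of 1.96 from BAT and 2.19 from WAT. The fat levels of Gstz1 and Fah stood several log2 units above the array median while every measured hepatocyte marker in fat was at 7.33 or below.

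In the tryptophan branch, Tdo2 (tryptophan dioxygenase, chr3:81958412-81975728), which opens the indole ring, was at 13.55 in liver, 5.92 in BAT and 6.26 in WAT. This was a difference of 7.29 from WAT and 7.63 from BAT, and the other 2 probe sets of Tdo2 gave 5.86 and 5.93 from WAT and 6.09 and 5.86 from BAT. Afmid (arylformamidase, chr11:117825503-117839908), which releases kynurenine, was at 9.33 in liver, 7.22 in BAT and 7.09 in WAT. Kmo (kynurenine monooxygenase, chr1:175632193-175660853), the step toward NAD, was at 10.56 in liver, 6.43 in BAT and 6.79 in WAT. Kynu (kynureninase, chr2:43555258-43683048), which splits off alanine, was at 10.28 in liver, 6.18 in BAT and 6.21 in WAT. No gene of the tryptophan branch was above 7.22 in either fat of the water mice.

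**Figure D1:**
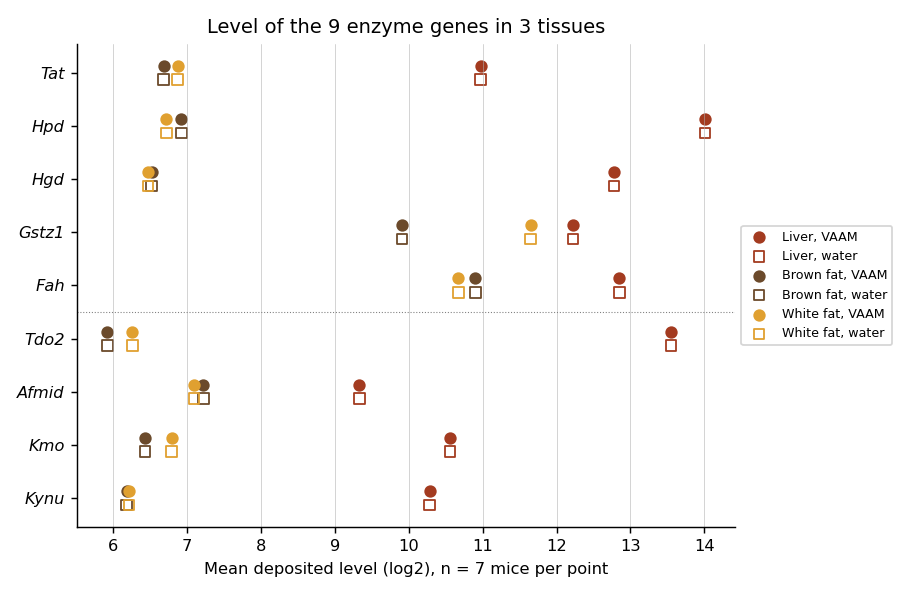
Mean deposited level (log2, horizontal axis) of each gene's probe set with the highest mean, in VAAM mice (filled circles) and water mice (open squares), 7 mice per point, with a dotted line between the tyrosine branch above and the tryptophan branch below. All 9 genes lie farthest right in liver, and only Gstz1 and Fah lie above 9 in fat.

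Between the fats the differences were small apart from Gstz1. BAT minus WAT was -1.74 for Gstz1, and for the other 8 genes it lay between -0.36 (Kmo) and 0.23 (Fah). Of the 16 probe sets 7 were higher in BAT than in WAT and 9 lower, against 36.9% of all probe sets higher, with a median over the 9 genes of -0.03. The median probe set itself differed by -0.09 between these tissues, which may have been normalized apart, so for genes other than Gstz1 no order of the fats is given.

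Not all probe sets of a gene told the same. For Hgd the probe set 1458049_at was at 8.44 in liver, 6.92 in BAT and 6.72 in WAT, with liver 1.52 above BAT and 1.72 above WAT, where 1452986_at showed 6.26 and 6.32. Kynu 1451903_at exceeded WAT by 0.45 and BAT by 0.54 in liver. The Afmid probe set 1447638_at was at 5.97 in liver, with differences of -0.03 from BAT and -0.15 from WAT, and was the only one of the 16 that was not highest in liver, while Afmid 1452944_at was at 9.94 in liver, 6.62 in BAT and 6.74 in WAT. Over the 14 livers, with group means removed, the 3 Tdo2 probe sets varied together (Pearson r between 0.83 and 0.91, Spearman rho between 0.73 and 0.85), and Afmid 1447638_at was nearly unrelated to the other 3 Afmid probe sets (r between 0.03 and 0.21). The 2 probe sets of Hgd had an r of 0.28 and a rho of 0.35 (permutation p = 0.327 and 0.214, adjusted over the 11 pairs 0.45 and 0.295), and an r of 0.21 without the 2 farthest livers.

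The second question was whether 5 days of VAAM changed these transcripts. No probe set of the pathway passed limma at an adjusted p of 0.05 in any tissue, and neither did any other probe set on the array (0% in liver, in WAT and in BAT). At an unadjusted limma p of 0.05, 3 of the 16 probe sets passed in liver, 0 of 16 in WAT and 1 of 16 in BAT, against 9.09%, 3.76% and 5.1% of all probe sets. These shares depended on the scaling: with arrays centred on their median, 2, 0 and 0 of the 16 passed, against 0.91%, 0.162% and 0.357% of all probe sets. In no tissue did the VAAM and water mice separate without overlap for any of the 16, which 0.155%, 0.0488% and 0.0955% of all probe sets did. The smallest adjusted p of limma for a probe set of the pathway was 0.437 in liver, 1 in WAT and 0.926 in BAT. By rank products, the test of the study's methods, 2 of the 16 probe sets were called in liver, 0 in WAT and 1 in BAT, against 3.86%, 3.31% and 4.02% of all probe sets, and when every probe set was first scaled to unit SD none of the 16 was called in any tissue. The SE of a difference was between 0.535 and 0.629 SD, so that differences of up to about 1 SD could not be told from none with 7 mice a group.

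In liver the median difference of the 9 genes was -0.34 SD (all genes -0.04), with 3 genes higher and 6 lower in VAAM mice. Tat was the highest. Its level in the VAAM livers had a lowest value of 10.97161, a median of 10.97998 and a highest of 10.98619, against 10.96070, 10.97126 and 10.98094 in the water livers. All 7 VAAM livers were above the median of the water livers, but the groups overlapped, since water replicate 6 lay above 4 of the VAAM livers. The difference was 1.41 ± 0.607 SD (n = 7 and 7, exact permutation p = 0.0192, limma p = 0.0179, limma adjusted p = 0.472), and rank products called it higher. Without VAAM replicate 6, which was both the array that stood apart and the highest in Tat, it was 1.25 SD (exact permutation p = 0.0414).

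Gstz1 was the lowest in liver. In units of the SD from the water mean, the VAAM livers had a lowest value of -3.21, a median of -1.53 and a highest of 0.21, against -1.23, 0.01 and 1.44 in the water livers, and 1 of 7 VAAM livers was above the water median. The difference was -1.37 ± 0.603 SD (exact permutation p = 0.0268, limma adjusted p = 0.497), and it was 0.00 after quantile normalization and -0.52 after centring each array on its median (exact permutation p = 1 and 0.332). The absolute deviations behind it were very small, with a SD of 3.48e-06 log2 over the water livers, against 0.00598 for Tat.

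The other 3 genes of the tyrosine branch were within about 1 SE of no difference in liver. Hpd differed by -0.56 ± 0.547, Hgd by 0.05 ± 0.535 and Fah by -0.32 ± 0.538 SD. The second Hgd probe set, 1458049_at, stood against this value. Its VAAM livers had a lowest value of -0.93, a median of 1.64 and a highest of 3.07 SD from the water mean, against -0.69, -0.25 and 0.73 in the water livers, and 6 of 7 VAAM livers were above the water median. The difference was 1.55 ± 0.622 SD (exact permutation p = 0.0163, limma adjusted p = 0.437), called higher by rank products. Which of the probe sets of Hgd reports its transcript more faithfully was not tested.

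In the tryptophan branch nothing reached an unadjusted p of 0.05 in liver. Tdo2, which like Tat opens its route, differed by -0.34 ± 0.539 SD (exact permutation p = 0.539), and its other probe sets by -0.57 and -0.40. Afmid differed by -0.44 ± 0.542, with 0.42, 0.33 and 0.00 for its other probe sets, Kmo by -0.34 ± 0.539 and Kynu by 0.51 ± 0.544 SD. Tat and Tdo2 thus had opposite signs in VAAM livers, although only the Tat value lay more than 1 SE from 0. Of the markers in liver, 2 hepatocyte markers were higher and 3 lower in VAAM mice (median -0.28 SD). For macrophages 6 were higher and 0 lower (0.50 SD), for endothelium 3 and 1 (0.71 SD) and for skeletal muscle 0 and 5 (-0.67 SD). The part of these lists in the values of liver was not tested.

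**Figure D2:**
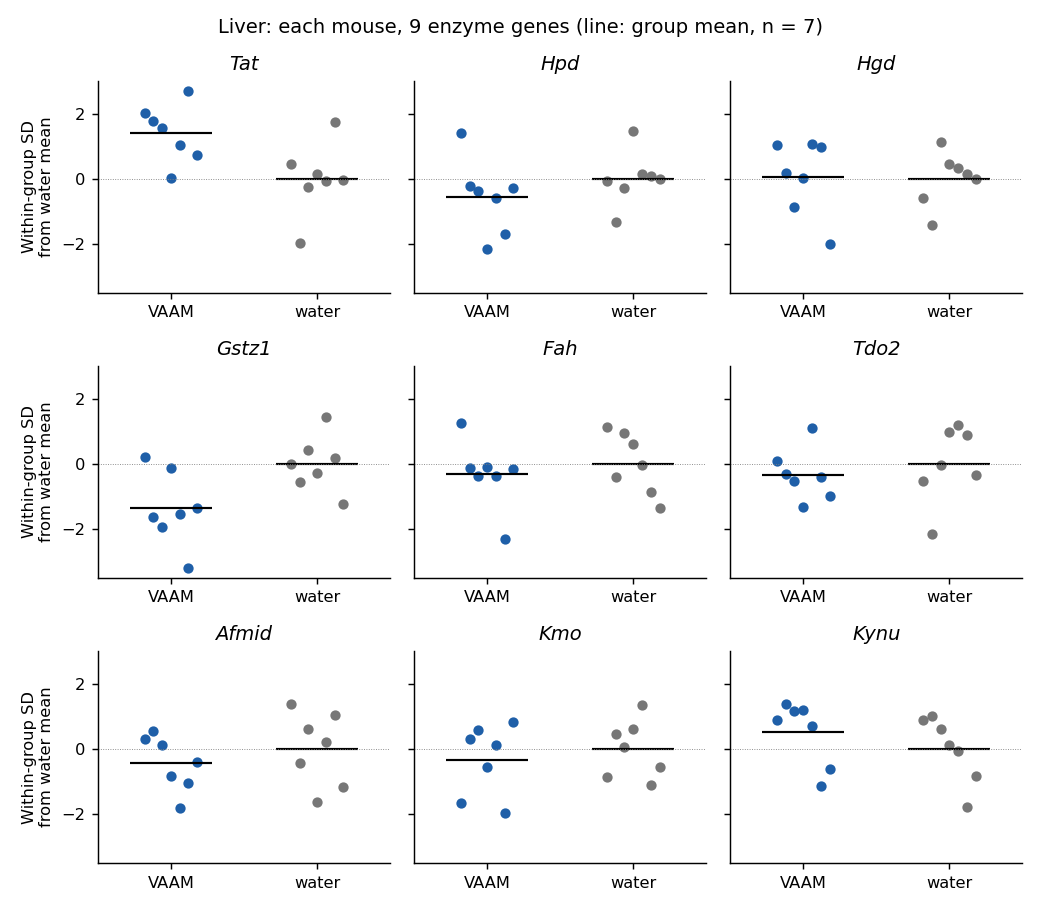
Each liver as a point, VAAM mice left and water mice right in every panel, in within-group SD from the water mean (vertical axis), with the group mean as a line (n = 7 each). Tat is the gene with all 7 VAAM points above the water mean, Gstz1, Hpd and Fah each have 1 of 7 above the water median, and the groups overlap in all 9 panels.

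In WAT the 9 genes lay between -0.30 SD (Gstz1) and 0.51 SD (Kmo), with 6 higher and 3 lower in VAAM mice and a median of 0.07 (all genes 0.00). All 4 genes of the tryptophan branch were on the higher side, Tdo2 by 0.45 ± 0.542, Afmid by 0.07 ± 0.535, Kmo by 0.51 ± 0.544 and Kynu by 0.32 ± 0.538 SD, none beyond 1 SE. This side depended on the processing, since Kmo was -0.51 and Kynu -0.84 SD after quantile normalization. Over the alternatives other than leaving out single replicates, Tdo2 lay between -0.17 and 0.74 and Afmid between -0.59 and 0.07 SD. Kmo lay between -0.57 and 1.26 and Kynu between -0.84 and 0.32 SD. Tat differed by 0.41 ± 0.541, Hpd by -0.29 ± 0.538, Hgd by 0.04 ± 0.535 and Fah by -0.22 ± 0.536 SD. VAAM replicate 1, the array that stood apart in WAT, was the lowest in Gstz1 (-3.02 SD) and in Fah (-2.86 SD), and without it Kmo differed by 1.26 SD (exact permutation p = 0.0443). An epididymis marker moved with the treatment in the same samples: Lcn5 averaged 12.72 in VAAM mice and 7.28 in water mice, a difference of 2.16 ± 0.693 SD, although 2 of the 6 epididymis markers were higher and 4 lower. The levels of the 6 lay between 6.88 and 12.72 in VAAM mice and between 6.50 and 9.66 in water mice. Of the endothelial markers in WAT 0 were higher and 4 lower in VAAM mice (median -0.85 SD). Of the macrophage markers 4 were higher and 2 lower (median 0.16 SD). The part of these marker lists in the values of WAT was not tested.

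In BAT the 9 genes lay between -1.63 SD (Afmid) and 1.09 SD (Gstz1), with 4 higher and 5 lower and a median of -0.04 (all genes 0.03). For Afmid the VAAM mice had a lowest value of -2.33, a median of -2.11 and a highest of 0.47 SD from the water mean, against -1.51, 0.26 and 1.11 in the water mice. Of the 7 VAAM mice 1 was above the water median, and the difference was -1.63 ± 0.629 SD (exact permutation p = 0.0128, limma adjusted p = 0.926). The other 3 Afmid probe sets did not share it, at -0.12, 0.46 and -0.55 SD, their mean with the first was -0.78 SD (exact permutation p = 0.17), and after quantile normalization or centring the arrays on their median the value was -0.07 and 0.00. For Gstz1 the VAAM mice had a lowest value of -0.93, a median of 1.19 and a highest of 2.76, against -1.28, -0.03 and 0.90 in the water mice. Of the 7 VAAM mice 6 exceeded the water median. The difference of 1.09 ± 0.579 SD (exact permutation p = 0.067) was called higher by rank products and was 1.82 SD without the arrays that stood apart, but 0.09 after quantile normalization. Tat differed by -0.70 ± 0.553, Hpd by 0.05 ± 0.535, Hgd by -0.04 ± 0.535, Fah by -0.24 ± 0.537, Tdo2 by -0.54 ± 0.546, Kmo by 0.17 ± 0.536 and Kynu by 0.70 ± 0.554 SD. Muscle markers in BAT lay between 7.85 and 10.95 in VAAM mice and between 7.67 and 10.42 in water mice, with all 5 on the higher side by 0.14 to 0.19 SD. Of the 4 measured adipocyte markers in BAT 3 were on the higher side and 1 on the lower, with Retn at 2.11 ± 0.687, Adipoq at 1.96 ± 0.667, Cidec at 0.59 ± 0.548 and Lep at -0.26 ± 0.537 SD, and the part of either marker list in the values of BAT was not tested.

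**Figure D3:**
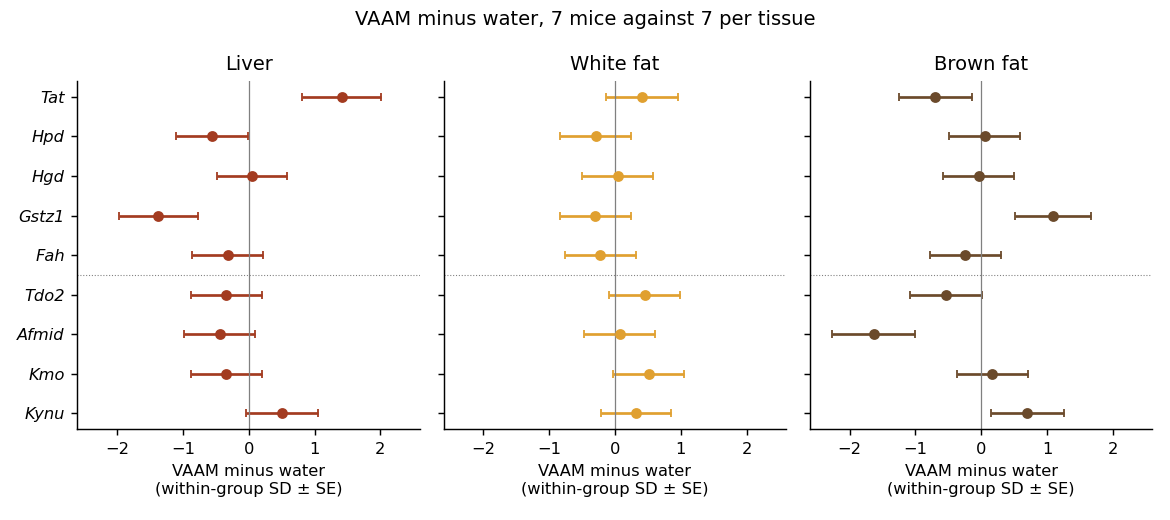
VAAM minus water in within-group SD (horizontal axis) for the 9 genes in liver, WAT (white fat) and BAT (brown fat), as points with bars of 1 SE, 7 mice against 7, and a dotted line between the tyrosine and tryptophan branches. Tat at 1.41 and Gstz1 at -1.37 in liver, and Gstz1 at 1.09 and Afmid at -1.63 in BAT, are the values farthest from 0.

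**Figure D4:**
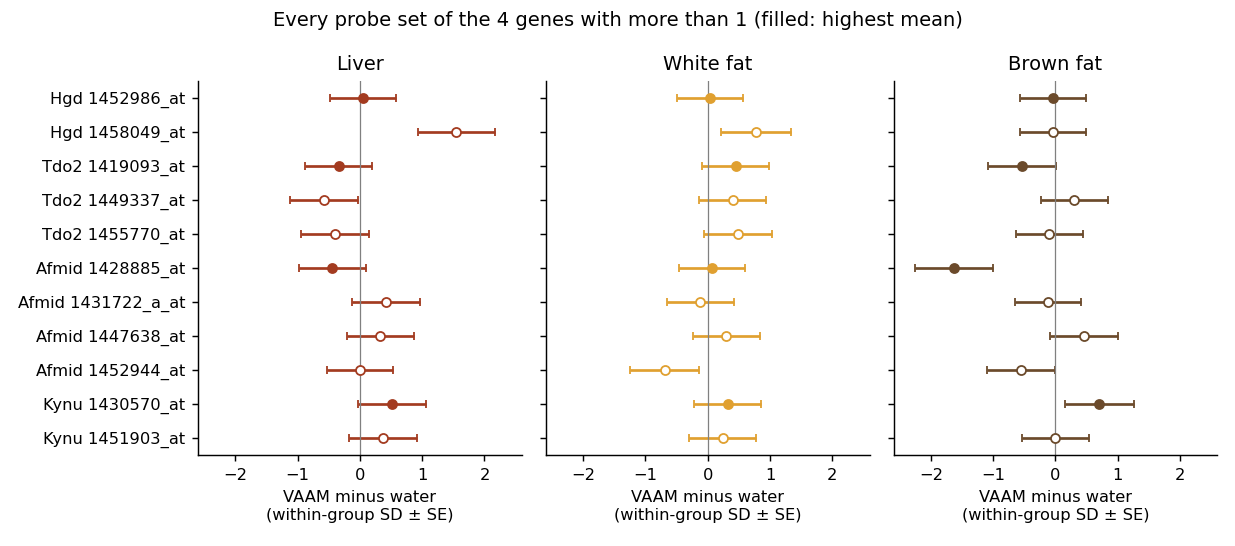
VAAM minus water in within-group SD (horizontal axis, bars of 1 SE) for every probe set of Hgd, Tdo2, Afmid and Kynu, with the probe set of the highest mean filled. Hgd 1458049_at in liver (1.55) and Afmid 1428885_at in BAT (-1.63) lie apart from the other probe sets of their gene.

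The response of a gene was also compared between tissues, on values scaled to unit within-group SD, in 27 tests (9 genes and 3 pairs of tissues). None passed after adjustment over the 27. Gstz1 gave the smallest p, with -1.37 SD in liver and 1.09 SD in BAT, a difference of -2.46 SD (permutation p = 0.00527, adjusted 0.142). Tat followed, with 1.41 SD in liver and -0.70 SD in BAT, a difference of 2.11 SD (permutation p = 0.0142, adjusted 0.192), and Afmid had -1.63 SD in BAT and 0.07 SD in WAT, a difference of -1.70 SD (permutation p = 0.048, adjusted 0.432). By the methods of the study the tissues were collected from the same mice, but the labels do not say whether the same number marks the same mouse. The tests treat the tissues as unrelated and so leave out any dependence between tissues of a mouse.

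Tat is a known target of glucocorticoids and of glucagon through cAMP. It was therefore set beside other liver genes known to be induced by glucocorticoids or cAMP, of which 11 of 12 listed were measured. In liver 9 of the 11 were higher and 2 lower in VAAM mice, with a median of 1.08 SD (all genes -0.04). None of the 11 passed limma after adjustment, and 5 were higher and 1 lower at an unadjusted limma p of 0.05, against 9.09% of all probe sets. That share was 0.91% with arrays centred on their median, for which the 11 were not recomputed. The list was chosen with earlier results of these data known, so its counts are a description and no independent test. Sgk1, a kinase that regulates ion transport, differed by 2.46 ± 0.734 SD (exact permutation p = 0.00233, limma adjusted p = 0.33). Dusp1, a phosphatase of MAP kinases, differed by 1.63 ± 0.63 SD, Igfbp1, a secreted binding protein of insulin-like growth factors, by 1.44 ± 0.61, G6pc, the enzyme that releases glucose, by 1.40 ± 0.606, and Tsc22d3, a mediator of glucocorticoids, by 1.32 ± 0.599 SD. For each of these 5 genes, as for Tat, all 7 VAAM livers were above the water median. Zbtb16, a zinc finger repressor, was on the other side at -1.14 ± 0.583 SD, and Fkbp5, a co-chaperone of the glucocorticoid receptor, was at -0.01 ± 0.535 SD. Tdo2, a classical target of glucocorticoids, was at -0.34 SD in these livers. In WAT 8 of the 11 were higher and 3 lower (median 0.42 SD), with Dusp1 at 1.51 ± 0.617 SD, and in BAT 8 were higher and 3 lower (median 0.42 SD), with Per1 of the circadian clock at 1.81 ± 0.65 SD.

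**Figure D5:**
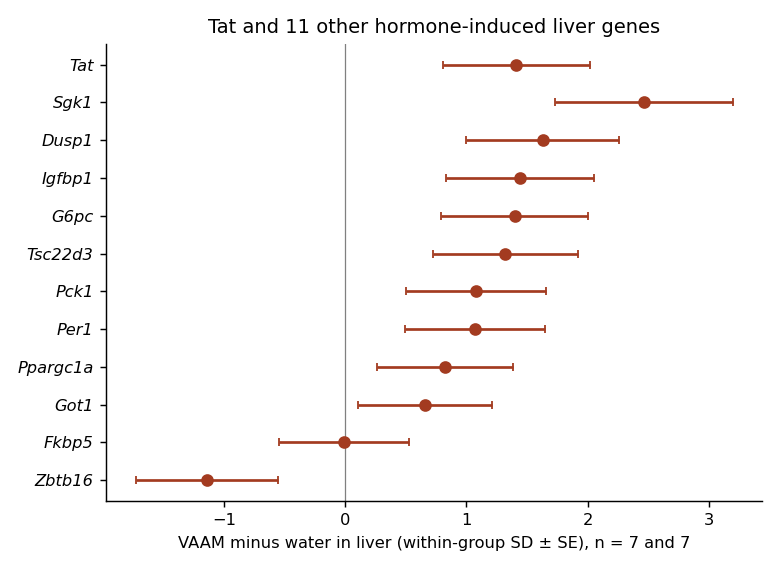
VAAM minus water in liver, in within-group SD with bars of 1 SE (horizontal axis), for Tat and below it 11 other liver genes known to be induced by glucocorticoids or cAMP, in falling order, 7 mice against 7. Tat at 1.41 lies among Sgk1 (2.46), Dusp1 (1.63), Igfbp1 (1.44), G6pc (1.40) and Tsc22d3 (1.32), while Zbtb16 is at -1.14.

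For the steps around the pathway, limma made no call after adjustment, and rank products were not read for these genes. Of the genes for the hydroxylation of phenylalanine and its cofactor tetrahydrobiopterin, 7 of 8 listed were measured, and 2 were higher and 5 lower in VAAM livers, between -1.12 ± 0.581 SD for Gchfr, the feedback regulator of cofactor synthesis, and 0.80 ± 0.559 SD for Spr, sepiapterin reductase (median -0.16). In WAT 3 were higher and 4 lower and in BAT 4 were higher and 3 lower, none at an unadjusted limma p of 0.05. Of 16 other enzymes that use tryptophan or kynurenine 15 were measured, with 5 higher and 10 lower in liver (median -0.29 SD), 11 higher and 4 lower in WAT (median 0.54 SD) and 6 higher and 9 lower in BAT (median -0.18 SD). Gcdh, glutaryl-CoA dehydrogenase at the end of the route, was at -1.13 ± 0.582 SD in liver, where 0 of the 7 VAAM mice exceeded the water median. Ido2, an alternative enzyme of the entry step, was at 1.49 ± 0.615 SD in WAT with 7 of 7 above (exact permutation p = 0.00583, limma adjusted p = 1), at a level of 6.41 in both groups, below the array median of WAT. Kyat1, a kynurenine aminotransferase, was at -1.18 ± 0.586 SD in BAT. The 8 transporters of aromatic amino acids gave 5 higher and 3 lower in liver, between -0.34 for Slc7a6 and 0.58 for Slc7a5, and none reached an unadjusted limma p of 0.05 in any tissue. In WAT they lay between -0.92 for Slc7a6 and 0.93 for Slc16a10, and in BAT between -1.09 for Slc6a19 and 1.10 for Slc43a1.

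Within the livers, the members were also compared with each other from mouse to mouse. With group means removed, 36 pairs of the 9 genes were correlated over the 14 livers, of which 26 had a positive r. Of the 36, 7 pairs had an unadjusted permutation p under 0.05 but none an adjusted one. Gstz1 and Fah had the highest Pearson r of 0.70 (permutation p = 0.00632, adjusted 0.163) and a Spearman rho of 0.64 (permutation p = 0.0171, adjusted 0.308). Without the 2 livers farthest in Gstz1 the r was 0.37, and it was 0.89 within the VAAM mice and 0.40 within the water mice, so that it rests on those livers. Fah and Kynu had an r of 0.67 and a rho of 0.46 (permutation p = 0.00905 and 0.099, adjusted 0.163 and 0.594), with 0.57 without the 2 farthest. Tat and Tdo2, the entry genes, had an r of 0.60 and a rho of 0.40 (permutation p = 0.0255 and 0.162, adjusted 0.23 and 0.607), with 0.23 without the 2 farthest. Hgd and Tdo2 had an r of 0.64 and a rho of 0.75 (permutation p = 0.0141 and 0.00312, adjusted 0.17 and 0.112), with 0.45 without the 2 farthest. Tat had its lowest r with Kynu, -0.55, and a rho of -0.35 (permutation p = 0.0422 and 0.227, adjusted 0.237 and 0.63), with -0.24 without the 2 farthest. Over all genes, the 5 with the highest Pearson r to Tat across the 14 livers were Serpina3i (0.88) and Ahcy, Phf3, Slc38a4 and Cdc40 (0.86 each). Ahcy hydrolyses S-adenosylhomocysteine and Slc38a4 is an amino acid transporter of hepatocytes. These 5 differed between VAAM and water livers by -0.63 to 0.33 SD, against 1.41 SD for Tat. They were selected for their r among all genes, so the r is a description with no test.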

How the data were processed

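RNA of liver, WAT and BAT from 7 VAAM and 7 water mice was measured on 42 Affymetrix mouse genome arrays. The authors summarized the arrays with the DFW method in R (2.7.1 in the methods, 2.7.2 in the submitters' processing notes) with Bioconductor 2.2, and the deposited values are logarithms per probe set, taken as log2 since the base is not given in the sources used here. Arrays of the other amino acid mixture of the study were not analysed here. Of 45101 probe sets 64 controls were left out and 45037 tested without a filter, of which 34945 name 1 gene, 932 several and 9160 none in the platform annotation. The number of arrays, not a read depth, limits the precision.

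For each tissue, limma 3.58.1 (R 4.3.3) was fitted to VAAM and water arrays with Benjamini-Hochberg adjustment over all probe sets. Exact two-sided permutation tests covered the 3432 splits of 14 arrays (smallest possible p 0.000583). Differences between tissues and correlations used 100000 resamples in Python 3.11.15 (numpy 2.4.6, pandas 2.3.3), and rank products used a false discovery rate of 0.05. Limma and rank products were each tested on simulated data with known changes. The values simulated for rank products had equal variance in every probe set, unlike these data, so that simulation does not bear on the calls made without scaling. Replicates are separate mice by number only, so p-values measure the spread between these samples.

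All 9 genes were named. Of the other lists, genes were named mainly for an unadjusted limma p under 0.05 or as the highest or lowest. Not every such gene was named, and of the markers only some were. The genes most like Tat were the 5 with the highest Pearson r. The members and lists were chosen with earlier results of these data known. Alternatives were quantile normalization, centring, a filter, other priors and weights, other summaries of a gene, blocking by replicate number and leaving out arrays.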

Additional observations from a re-analysis of the deposited data

Results flagged for a closer look

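In 54 groups of 7 samples (9 genes, 3 tissues, VAAM and water), 3 had a sample whose gap to its neighbour was unusually wide for the range of the group, and chance gives about 1 in 20. In WAT, VAAM replicate 1 was the lowest in Gstz1, with a gap of 0.666 of the range, and in Fah, with a gap of 0.588 of the range. The same array stood apart from the other WAT arrays over all probe sets, and without it the difference between VAAM and water mice was 0.29 SD for Gstz1 (-0.30 with it) and 0.38 SD for Fah (-0.22 with it). In BAT, VAAM replicate 3 was the highest in Kmo, with a gap of 0.676 of the range, and this array also stood apart. Without it and VAAM replicate 5 the Kmo difference was -0.23 SD, against 0.17 SD with both.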

How the results depend on the processing

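Of 1261 recomputed values 1225 were labelled unchanged, which is not a count of kept directions. A VAAM minus water difference with p under 0.05, or a tissue difference, had to keep its direction and its side of 0.05. A difference with a larger p had only to stay there and move by under 1 SD, so its sign could change. Without the array that stood apart, Gstz1 in WAT went from -0.30 to 0.29 SD and counted as unchanged. A count had to stay equal or within a set factor. The count of pathway probe sets called between VAAM and water (0 in each tissue) stayed 0 under all alternatives except rank products (2 in liver, 1 in BAT) and 1 fit over all 42 arrays (2 in liver, Tat and Hgd 1458049_at, where this fit called 1.53% of all probe sets), and it was 0 to 0 with any replicate left out. With the replicate block it was 0 in each tissue. The labels do not say whether the numbers pair VAAM with water mice. Same-numbered VAAM and water arrays correlated between -0.20 and 0.54, but differently numbered arrays were not compared, so these values cannot decide it. Under that block Kynu in liver was 1.99 SD (exact permutation p = 0.0156), against 0.51 SD unpaired, and Gstz1 in liver lost its unadjusted p (0.109). Between tissues limma passed nearly every probe set (99.8% for BAT against WAT, with 36.9% higher), so its counts there only repeat the direction of the difference. Of the 9 genes, 4 were called higher and 5 lower in BAT than in WAT, 2 and 1 among probe sets above the median mean. With any replicate left out those counts stayed at 4 and 5, and those of liver over either fat at 9 and 0. Nothing is read from this, since nearly every probe set also passed in those fits. Kynu in BAT against WAT was reversed by quantile normalization (0.01 log2, against -0.03). The VAAM minus water difference of Afmid in BAT vanished with centring (0.00 SD, exact permutation p = 0.999, against -1.63 SD). Counts at an unadjusted p of 0.05 went from 0 to 1 in WAT without VAAM replicate 1, and lay between 0 and 2 in BAT, at 2 without VAAM replicate 3 or 7 or water replicate 2, 4 or 5, each alone. Without VAAM replicate 3, Gstz1 in BAT was 1.76 SD (exact permutation p = 0.00932). Tat in liver stayed between 1.25 and 1.94 SD under every alternative (the block in its own unit). Its p lay between 0.00408 and 0.0414 (exact permutation, or sign flips under the block). After quantile normalization Fah in liver had the same value on all arrays and gave no difference. The cause of these changes was not tested.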
